A study of Homo sapiens with 9 samples.

Results

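The intracellular relay of transforming growth factor β (TGF-beta) and the genes that damp it were followed in HK-2 cells, an immortalised human cell line from kidney proximal tubule epithelium. The set comprised 10 genes listed by symbol, with earlier results of these data known: the SMAD genes SMAD2, SMAD3, SMAD4, SMAD6 and SMAD7 and the regulators SKIL, SKI, PMEPA1, TGIF1 and SMURF2. All 10 were among the 11963 genes with a named probe set on the array, and 6 of the 10 were among the 4368 genes bright enough to be tested. The groups compared were untreated HK-2 cells at 0 h, HK-2 cells at 24 h of TGFb1 and HK-2 cells at 48 h of TGFb1, with 3 arrays each. Each array held RNA pooled from the plates of 1 time point in 1 run, and the runs used consecutive passages of the 1 line. Arrays that share a replicate number were taken to be of 1 run, which the labels do not state. The design text calls the control vehicle and the sample labels call it untreated. Cells of all groups grew in medium with EGF, hydrocortisone, triiodothyronine and insulin-transferrin-selenium, and the labels used here give no dose of TGFb1. No untreated culture of 24 h or 48 h was analysed here, so TGFb1 and time in culture cannot be told apart.

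In the canonical pathway the activated receptor phosphorylates SMAD2 and SMAD3, which bind the shared partner SMAD4, enter the nucleus and switch target genes on or off. Several targets act back on the pathway. The inhibitory protein SMAD7 blocks the receptor and brings ubiquitin ligases such as SMURF2 to it, PMEPA1 keeps SMAD2 and SMAD3 away from the receptor, and SKIL (SnoN) and SKI hold SMAD complexes in a repressed state on DNA. In kidney epithelium this pathway is best known for driving fibrosis and loss of epithelial features.

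SMAD3 and SMAD4 contact DNA through a short element, CAGAC or GTCTG on the other strand, and a palindrome of it, GTCTAGAC, binds with high affinity. The promoters of PMEPA1 and SMAD7, which rose most among the 6 tested genes of the set, and of SMAD6, which holds the palindrome, are given here to show how these letters are placed. The sequences are from RefSeq on GRCh38.p14, run from 250 bases before to 50 bases after the annotated start, and are written 5′ to 3′ on the strand of the gene. Capitals mark these elements. Where a gene has several starts, the window with the most CAGAC or GTCTG matches is shown.
SMAD7, chr18:48950916-48951215, minus strand: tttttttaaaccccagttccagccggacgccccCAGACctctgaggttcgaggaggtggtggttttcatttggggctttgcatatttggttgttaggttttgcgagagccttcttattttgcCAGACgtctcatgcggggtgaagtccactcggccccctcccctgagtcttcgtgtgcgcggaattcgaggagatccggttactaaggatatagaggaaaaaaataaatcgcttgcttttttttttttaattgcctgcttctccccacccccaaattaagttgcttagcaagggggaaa
PMEPA1, chr20:57709966-57710265, minus strand: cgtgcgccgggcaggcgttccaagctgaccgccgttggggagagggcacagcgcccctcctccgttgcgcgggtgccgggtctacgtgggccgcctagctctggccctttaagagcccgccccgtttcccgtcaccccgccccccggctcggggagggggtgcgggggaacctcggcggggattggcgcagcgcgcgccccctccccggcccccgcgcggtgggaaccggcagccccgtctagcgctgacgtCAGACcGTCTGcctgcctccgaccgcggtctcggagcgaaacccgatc
SMAD6, chr15:66701986-66702285, plus strand: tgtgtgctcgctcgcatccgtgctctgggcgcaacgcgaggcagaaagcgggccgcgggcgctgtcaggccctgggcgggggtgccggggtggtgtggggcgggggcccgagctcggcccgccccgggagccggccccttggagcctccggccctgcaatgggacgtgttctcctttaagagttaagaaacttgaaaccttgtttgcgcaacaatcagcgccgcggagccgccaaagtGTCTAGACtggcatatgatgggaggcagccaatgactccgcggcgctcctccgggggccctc

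RefSeq windows were found for 9 of the 10 genes, 25 windows in all, and SKI was not matched. The SMAD7 window held 2 matches of CAGAC, whose first bases lay 217 and 128 bases before the start. The PMEPA1 window held CAGAC at bases 3 to 7 and GTCTG at bases 9 to 13, counted from 1 at the start. Counting every window of a gene, at least 1 match was found in 3 of 5 windows of SMAD3, 2 of 3 of SMAD7, 3 of 4 of PMEPA1 and 5 of 7 of TGIF1. The window with the most matches, 4, was 1 of the 5 of SMAD3, whose others had 0 or 1. TGIF1, which did not pass at either time, had the most windows, 7, and the most matches over them, 8. A site in overlapping TGIF1 windows is counted more than once in this sum. Of all 35116 windows of this length, 45.3% held at least 1 CAGAC or GTCTG on either strand 13.1% held 2 or more and 2.86% held 3 or more. SKIL and SMURF2 had 1 match each in their single windows, and SMAD2, SMAD4 and SMAD6 had 0. In all, 15 of the 25 windows of these genes held a match, and windows of 1 gene can overlap. The genes that passed and those that did not both include genes with matches. The palindrome GTCTAGAC was found in 0.202% of all windows and, among these genes, in the SMAD6 window, 12 to 5 bases before the start. A palindrome of any of these genes outside the windows searched would have been missed. The AP-1 letters TGANTCA, searched on both strands and found in 7.71% of all windows, occurred in 1 of 5 SMAD3 windows and 3 of 7 TGIF1 windows. The 3 motifs were searched separately, and none of the matches shown overlaps another. These are matches of letters only, not measured binding.

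Values are log2 expression values as deposited, and every value of a group is given for runs 1, 2 and 3 in that order. Differences are log2 fold changes from limma with their standard error (SE), 3 arrays a group. An adjusted p under 0.05 over all genes tested is called past the threshold. A gene was tested when at least 3 of the 9 arrays had a log2 value of at least 4. For SMAD3, SMAD6, SKIL and SKI, which no array brought to that value, the same fit over all 11963 genes without the filter is quoted and named as such. In the pooled cultures measured here a higher level in every cell and more cells with a high level cannot be told apart.

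At 24 h of TGFb1, PMEPA1, SMAD7 and SMURF2 rose among the 6 tested genes, and none of the 6 fell. In the same comparison 2.63% of all tested genes rose and 2.17% fell. At 48 h the same 3 of 6 rose and none fell, against 2.27% of all tested genes that rose and 2.17% that fell. Both comparisons use the same untreated arrays and are not independent of each other. Groups that do not overlap were also counted. At 24 h 3 of the 6 tested genes and 4 of all 10 had every treated array above every untreated one, against 8.68% of tested and 6.58% of all genes, and SMAD3 was the gene with every treated array below, against 7.72% of tested and 5.72% of all genes in that direction. At 48 h it was 4 of 6 and 5 of 10 above, against 9.75% and 6.23%, and again SMAD3 below, against 8.31% and 6.66%. PMEPA1 reached the filter through its treated arrays alone and so had to differ. SMAD7 had too few untreated arrays at the filter value and was tested only with the help of treated ones. The count is therefore a description of these genes.

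**Figure D1:**
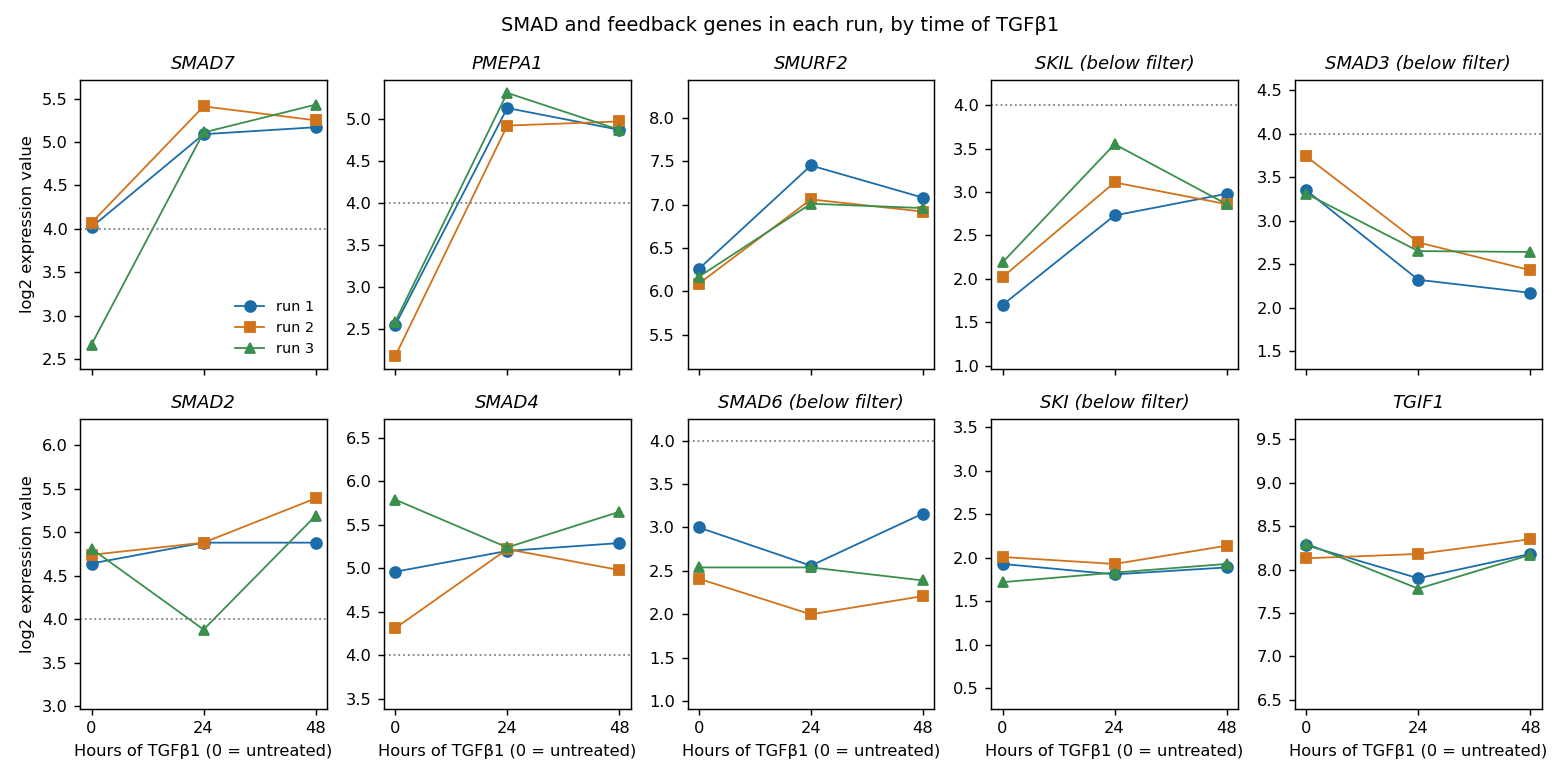
log2 expression values (y axis) of the 10 genes in untreated cells (0 h) and at 24 h and 48 h of TGFβ1 (x axis), with 1 line per run, where the dotted line marks the filter at 4. SMAD7, PMEPA1, SMURF2 and SKIL lay higher and SMAD3 lower at 24 h and 48 h than untreated in all 3 runs, while the lines of the other 5 genes crossed or stayed nearly level.

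Among the inhibitors that are themselves target genes of the pathway, PMEPA1 moved most. PMEPA1 had values of 2.54, 2.17 and 2.58 in untreated cells, 5.13, 4.92 and 5.31 at 24 h and 4.87, 4.97 and 4.87 at 48 h. The treated arrays lay far above all untreated ones and within 0.44 of each other inside any run. PMEPA1 rose 6.46-fold at 24 h (2.69 ± 0.157 SE, adjusted p = 4.51e-05) and 5.56-fold at 48 h (2.48 ± 0.157 SE, adjusted p = 6.44e-05). Because it reached the filter through its treated arrays alone, the limma fit over all genes without the filter is given too. There the adjusted p was 4.41e-05 at 24 h and 5.78e-05 at 48 h, where 0.869% and 0.811% of all genes rose. The rise was 2.60, 2.75 and 2.73 at 24 h in runs 1, 2 and 3, so the runs lay close together. The untreated values lay near the array medians of 2.2 to 2.23, so its folds start from a level close to background and are not exact. Its single probe set stayed past the threshold without any array and without any run.

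SMAD7, the inhibitory SMAD that acts on the TGF-beta receptor, had values of 4.02, 4.07 and 2.67 in untreated cells, 5.09, 5.41 and 5.11 at 24 h and 5.17, 5.25 and 5.43 at 48 h. All treated arrays were above all untreated ones, and the untreated array of run 3 stood below those of runs 1 and 2 by more than 1 log2 unit. SMAD7 rose by 1.62 ± 0.327 SE at 24 h (3.07-fold, adjusted p = 0.0241) and by 1.69 ± 0.327 SE at 48 h (3.24-fold, adjusted p = 0.0182). It reached the filter only with the help of treated arrays, so the limma fit over all genes without the filter is given too. There the adjusted p was 0.0377 at 24 h and 0.0294 at 48 h, where 0.869% and 0.811% of all genes rose. Within runs 1, 2 and 3 the difference was 1.07, 1.34 and 2.44 at 24 h and 1.15, 1.18 and 2.75 at 48 h. Runs 1 and 2 thus showed less than the mean, and run 3 more. Without the untreated array of run 3 the values were 1.16 at 24 h (adjusted p = 0.00479) and 1.24 at 48 h (adjusted p = 0.00347). The 24 h call was lost when the 24 h array of run 1, 2 or 3 was left out (adjusted p = 0.0514, 0.0783 and 0.074). Likewise the 48 h call was lost when the 48 h array of run 1, 2 or 3 was left out (0.0621, 0.0586 and 0.0813). Both calls were also lost without the whole of run 1 (0.173 at 24 h and 0.179 at 48 h) or of run 2 (0.0757 and 0.0622). SMAD7 has 1 probe set here, so no other probe set could be set beside it.

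SMURF2, a ubiquitin ligase that SMAD7 recruits to the receptor and that also marks SMADs for degradation, had values of 6.26, 6.09 and 6.17 in untreated cells, 7.45, 7.06 and 7.01 at 24 h and 7.08, 6.92 and 6.96 at 48 h. The groups did not overlap, and even the highest untreated array lay well below the lowest treated one. SMURF2 rose 2-fold at 24 h (1.00 ± 0.148 SE, adjusted p = 0.00467) and rose 1.76-fold at 48 h (0.81 ± 0.148 SE, adjusted p = 0.0133). The differences were 1.19, 0.97 and 0.84 at 24 h and 0.82, 0.83 and 0.79 at 48 h in runs 1, 2 and 3. At 48 h the call was lost without the 48 h array of run 1 (0.77, adjusted p = 0.0721) or of run 3 (0.83, adjusted p = 0.0554). Leaving out a whole run ended the 24 h call for run 1 (adjusted p = 0.0848) and run 3 (0.0706), and the 48 h call for run 1, 2 or 3 (0.13, 0.119 and 0.142). Unlike PMEPA1 and SMAD7, it was bright on all 9 arrays, with values of at least 6.09.

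SKIL, the gene of the co-repressor SnoN, was dim throughout and its values are read with that limit. Its brightest probe set (217591_at) had 1.70, 2.02 and 2.19 in untreated cells, 2.73, 3.11 and 3.55 at 24 h and 2.98, 2.86 and 2.86 at 48 h. All 6 treated arrays were above the 3 untreated ones. In the fit over all genes SKIL rose by 1.16 ± 0.202 SE at 24 h (adjusted p = 0.0198), where 0.869% of all genes rose. At 48 h it was at 0.93 ± 0.202 SE and missed the threshold (adjusted p = 0.058), where 0.811% rose. It passed at 48 h with the run as a block (replicate block, adjusted p = 0.0132), where 1.85% of all genes rose and 2.08% fell. Of 17 alternatives to the fit without the filter, 4 took the 48 h value past the threshold, the block among them. The 24 h call was lost without the untreated array of run 1 (1.02, adjusted p = 0.0879), the 24 h array of run 2 (1.17, adjusted p = 0.067) or that of run 3 (0.95, adjusted p = 0.0523). Without the whole of run 1, 2 or 3 it was also lost (0.0998, 0.188 and 0.12). The other SKIL probe sets were dimmer still. One of them (206675_s_at) was at 0.27 at 24 h and 0.61 at 48 h, with adjusted p-values of 0.579 and 0.0846 over all 19064 named probe sets, and the last (215889_at) was at −0.10 and −0.30. Averaged over its 3 probe sets SKIL was at 0.44 at 24 h (adjusted p = 0.138).

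SKI, the relative of SnoN that gave the family its name, had 1.93, 2.01 and 1.72 in untreated cells, 1.81, 1.93 and 1.83 at 24 h and 1.89, 2.14 and 1.93 at 48 h. All of these lie below the array medians, and the groups overlapped. In the fit over all genes the difference was −0.03 at 24 h (95% interval −0.31 to 0.24) and 0.10 at 48 h (−0.17 to 0.37). At this brightness a change of the SKI transcript may not be detectable.

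Of the receptor-activated SMADs, SMAD3 was lower in treated cells by its brightest probe set and SMAD2 did not pass, and whether they differ in their change was not tested. SMAD3 had values of 3.35, 3.74 and 3.31 in untreated cells, 2.32, 2.75 and 2.65 at 24 h and 2.17, 2.43 and 2.64 at 48 h. All 6 treated arrays lay below the 3 untreated ones. In the fit over all genes SMAD3 fell by 0.89 on the log2 scale at 24 h (SE 0.176, 1.86-fold lower, adjusted p = 0.0377) and by 1.05 at 48 h (SE 0.176, 2.08-fold lower, adjusted p = 0.0152). In that fit 0.886% of all genes fell at 24 h and 0.961% at 48 h. Within runs 1, 2 and 3 the difference was −1.03, −0.99 and −0.66 at 24 h and −1.18, −1.31 and −0.67 at 48 h.

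The SMAD3 calls rest on a dim probe set and on most arrays. At 24 h the adjusted p went above 0.05 without any 1 of 8 of the 9 arrays (0.0509 to 0.107), the exception being the 48 h array of run 1. At 48 h it did so without the 48 h array of run 1 (0.0747) or of run 2 (0.0602). Without the whole of run 1, 2 or 3 both calls were lost (0.235, 0.173 and 0.206 at 24 h, and 0.212, 0.15 and 0.104 at 48 h). SMAD3 has 4 probe sets, and the brightest (218284_at) was the only one past the threshold over all named probe sets, with adjusted p-values of 0.0429 at 24 h and 0.0176 at 48 h. Of all named probe sets 0.666% rose and 0.65% fell at 24 h, and 0.65% rose and 0.666% fell at 48 h. The next 2 were at −0.19 and −0.48 at 24 h and at −0.52 and −0.44 at 48 h, and at 48 h their treated arrays also lay below all untreated ones. The dimmest was at 0.01 and −0.09. Averaged over the 4 probe sets, SMAD3 was at −0.39 at 24 h (adjusted p = 0.238) and −0.53 at 48 h (adjusted p = 0.0901).

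SMAD2, which is activated by the same receptor, had 4.64, 4.74 and 4.81 in untreated cells, 4.88, 4.88 and 3.88 at 24 h and 4.88, 5.39 and 5.19 at 48 h. The 24 h array of run 3 was lower than all other arrays, and the 48 h arrays lay above all untreated ones. SMAD2 was at −0.19 at 24 h (95% interval −0.78 to 0.40, adjusted p = 0.792) and at 0.42 at 48 h (−0.17 to 1.01, adjusted p = 0.584). Without the 24 h array of run 3 the 24 h value was 0.14. Its other 2 probe sets, of similar brightness, were at 0.32 and 0.10 at 24 h and at 0.48 and 0.28 at 48 h. None of the 3 passed at either time.

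SMAD4, the partner shared by all receptor-activated SMADs, had 4.96, 4.31 and 5.79 in untreated cells, 5.20, 5.22 and 5.24 at 24 h and 5.29, 4.98 and 5.65 at 48 h. The untreated arrays spread over more than 1 log2 unit and enclosed all of the treated ones. The difference was 0.20 at 24 h (95% interval −0.53 to 0.93, adjusted p = 0.825) and 0.29 at 48 h (−0.44 to 1.02, adjusted p = 0.818). Within runs 1, 2 and 3 it was 0.24, 0.91 and −0.55 at 24 h. Its second probe set was near background, between 1.43 and 1.66 on all arrays.

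SMAD6, the inhibitory SMAD associated mainly with BMP signalling, had 3.0, 2.41 and 2.54 in untreated cells, 2.56, 2.00 and 2.54 at 24 h and 3.16, 2.21 and 2.39 at 48 h. The groups overlapped, and run 1 was highest at every time. In the fit over all genes SMAD6 was at −0.28 at 24 h (95% interval −0.88 to 0.31, adjusted p = 0.769) and at −0.06 at 48 h (−0.66 to 0.54, adjusted p = 0.984). Its 4 probe sets were all below the filter, and none passed over all named probe sets. For the SMAD6 probe sets 209886_s_at (−0.28) and 209887_at (−0.08) all 24 h arrays lay below all untreated ones, with adjusted p-values of 0.565 and 0.887. Of all genes, each read from its brightest probe set, 5.72% did so at 24 h. Whether SMAD6 and SMAD7 differ in their change was not tested.

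TGIF1, a homeodomain co-repressor of SMAD2 and SMAD3 target genes, had 8.28, 8.13 and 8.30 in untreated cells, 7.90, 8.18 and 7.78 at 24 h and 8.18, 8.35 and 8.17 at 48 h. Runs 1 and 3 were lower at 24 h than untreated and run 2 was not. TGIF1 was at −0.28 at 24 h (95% interval −0.60 to 0.04, adjusted p = 0.379) and at 0.00 at 48 h (−0.32 to 0.32, adjusted p = 1). The interval at 48 h leaves out changes of more than 0.32 in either direction.

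**Figure D2:**
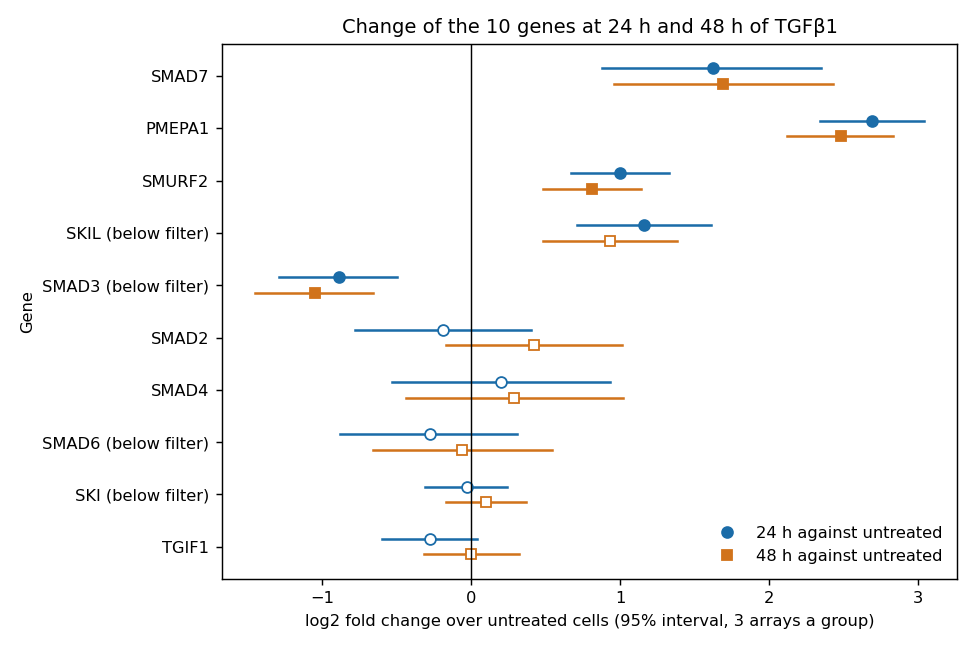
log2 fold change over untreated cells (x axis) of the 10 genes (y axis) at 24 h (circles) and 48 h (squares) of TGFβ1, with 95% intervals. Filled symbols are past the threshold; genes below the filter are from the fit over all genes, and the intervals of SMAD7, PMEPA1, SMURF2, SKIL and SMAD3 lie clear of 0 at both times.

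Between 24 h and 48 h no gene of the 10 differed past the threshold. In limma 0 of the 6 tested genes and 0% of all 4368 passed for 48 h against 24 h, with the replicate block as well as without it. At an unadjusted p under 0.05 there were 219 of the 4368 genes (5.01%), and 1 of the 6, SMAD2 (0.61, unadjusted p = 0.045, adjusted p = 0.781). PMEPA1 was at −0.22 (95% interval −0.57 to 0.14), SMURF2 at −0.19 (−0.52 to 0.14) and SMAD7 at 0.08 (−0.66 to 0.81). The last interval is wide, so a steady SMAD7 level is not shown by it. TGIF1 was higher at 48 h than at 24 h in all 3 runs, by 0.28, 0.17 and 0.39, and did not pass (0.28, adjusted p = 0.781).

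**Figure D3:**
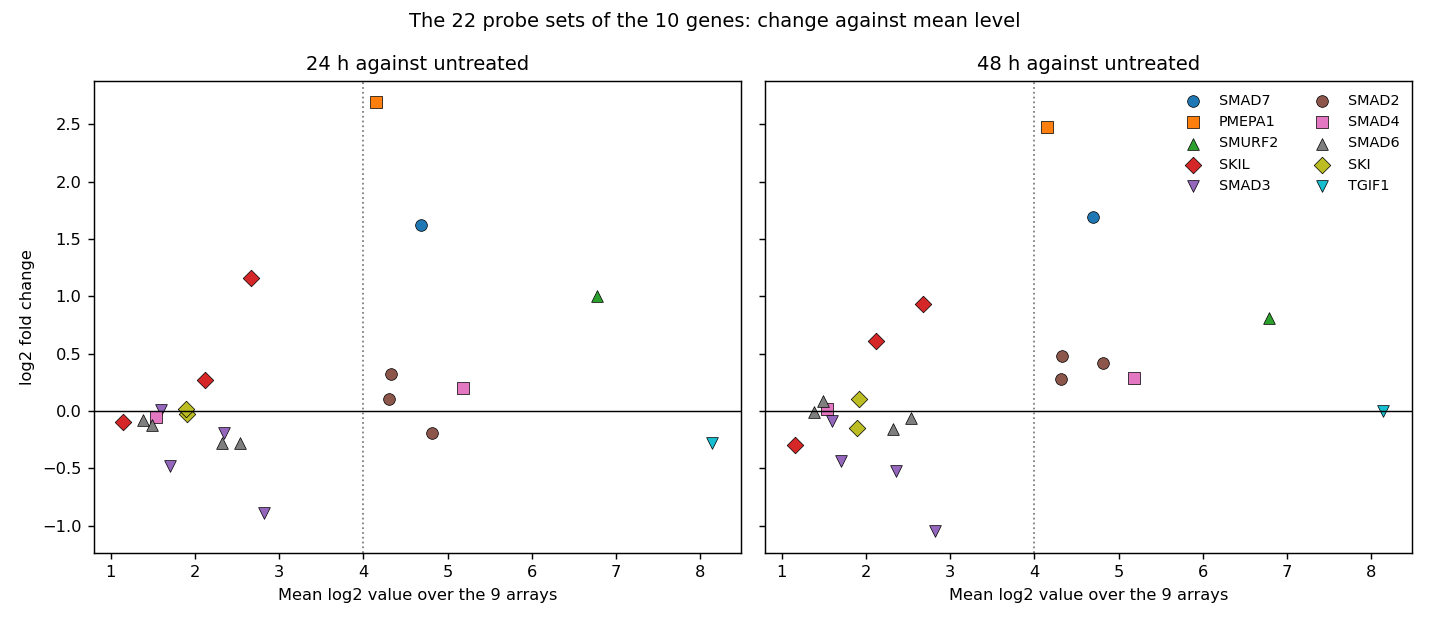
Change (log2 fold change, y axis) of all 22 probe sets of the 10 genes against their mean log2 value over the 9 arrays (x axis), for 24 h (left) and 48 h (right) against untreated; the dotted line marks a mean of 4. Of the 22 probe sets 8 reached the filter, and the SMAD3 and SKIL sets with the largest changes lie left of the line.

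The wider machinery of the pathway was read from 5 gene lists, of which 4 hold regulators and 1 holds target genes. Of the 4 lists of regulators no tested gene passed at any time in limma. These were 1 of 3 other SMAD genes, 9 of 13 ubiquitin ligases and deubiquitinases, 4 of 14 nuclear co-repressors, co-activators and partners, and 10 of 22 receptor-level regulators, anchors, phosphatases and transport factors. The median log2 fold changes of the 3 lists with more than 1 tested gene were 0.01, −0.12 and 0.01 at 24 h and 0.24, 0.04 and 0.17 at 48 h, beside 0.02 over all tested genes at both times.

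In those lists the genes with the smallest p were as follows. SMURF1, the ligase most like SMURF2, had 3.38, 2.98 and 3.83 in untreated cells, 4.00, 4.25 and 4.25 at 24 h and 3.94, 4.31 and 4.20 at 48 h. All treated arrays lay above all untreated ones. SMURF1 was at 0.77 ± 0.212 SE at 24 h (adjusted p = 0.0852; 0.0324 with the replicate block) and at 0.75 at 48 h (adjusted p = 0.0918; 0.0387 with the replicate block). With the replicate block it was 1 of the 9 ligases and deubiquitinases that rose at each time, where 5.95% of all tested genes rose at 24 h and 5.22% at 48 h. SMURF1 reached the filter through treated arrays alone, as PMEPA1 did, and without the filter it did not pass (adjusted p = 0.125 and 0.136). SMAD1, which transmits BMP signals, was at 0.14 at 24 h and 0.31 at 48 h. The co-activator SNW1 (−0.16 and 0.11) and the import factor IPO7 (−0.28 and 0.15) had their smallest p for 48 h against 24 h, at adjusted p = 0.781 each. BAMBI, a decoy receptor and itself a known target, was named after its values were seen. It was below the filter for testing, with 1.99, 3.04 and 2.71 in untreated cells, 3.72, 3.37 and 4.24 at 24 h and 2.88, 3.20 and 3.05 at 48 h. BAMBI did not pass in the fit over all genes (1.20 at 24 h, adjusted p = 0.0765).

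Target genes outside the feedback set moved in both directions. Of 15 tested of 18 textbook targets, 7 rose and 1 fell at 24 h, and 7 rose and 1 fell at 48 h, beside the shares of all tested genes given above. With the replicate block 10 rose and 2 fell at 24 h, where 5.95% and 5.52% of all tested genes did, and 10 rose and 3 fell at 48 h, where 5.22% and 4.81% of them did. The list had a median of 1.13 at 24 h and 0.97 at 48 h. GADD45B, a stress and growth-arrest gene, had 6.95, 6.40 and 6.50 in untreated cells, 8.13, 8.11 and 8.30 at 24 h and 7.95, 7.84 and 7.89 at 48 h, and rose at both times (1.56 ± 0.161 SE, adjusted p = 0.000704; 1.27, adjusted p = 0.00196). TGFBI, a secreted matrix protein, rose by 2.59 and 2.62, SNAI2, a repressor of epithelial genes, by 2.00 and 2.45, TAGLN, an actin-binding protein, by 2.81 and 2.44, and LTBP2, a microfibril protein, by 1.13 and 1.01. SNAI2 reached the filter only with the help of treated arrays. In the limma fit without the filter it passed too (adjusted p = 0.00171 at 24 h and 0.000592 at 48 h). ID2, which TGF-beta represses in epithelial cells, was the gene that fell, by 1.45 at 24 h and by 1.08 at 48 h. Its relative ID1, named after its values were seen, went the other way, with all treated arrays above all untreated ones. ID1 was at 0.55 at 24 h (limma, adjusted p = 0.192; 0.0358 with the replicate block). At 48 h it rose by 0.97 (adjusted p = 0.0214; 0.00295 with the replicate block). CDKN1A, a cell cycle inhibitor gene that TGF-beta is known to induce in epithelial cells, was named after its values were seen. It was at −0.93 at 24 h and −1.04 at 48 h, with all treated arrays below all untreated ones (adjusted p = 0.103 and 0.0659; 0.00773 and 0.00455 with the replicate block). RHOB, also named after its values were seen, was the further gene that fell with the block at 48 h (−0.50, adjusted p = 0.0456).

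**Figure D4:**
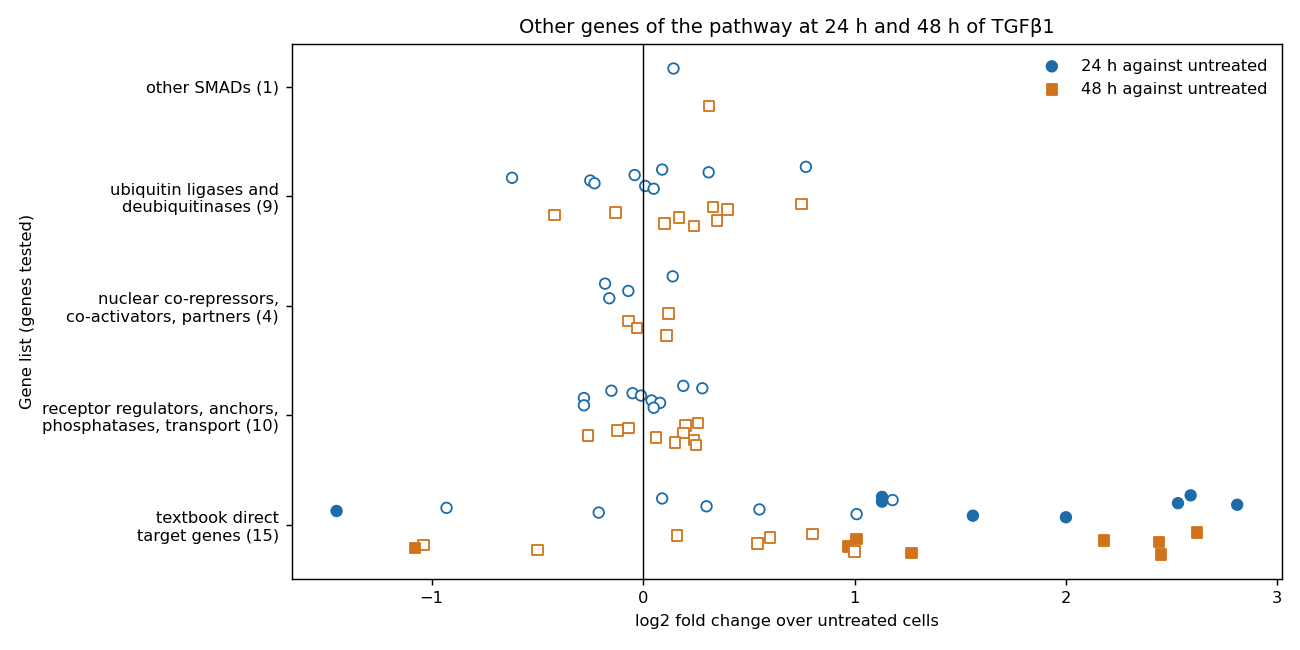
log2 fold change over untreated cells (x axis) of the tested genes of 5 pathway lists (y axis, number tested in brackets) at 24 h (circles) and 48 h (squares) of TGFβ1; filled symbols are past the threshold in limma. All filled symbols are among the 15 target genes, and the regulators of the other 4 lists stay between −0.62 and 0.77.

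Some of the 4368 tested genes followed a feedback gene across the 9 arrays more closely than all others. For PMEPA1 these were the prostaglandin transporter gene SLCO2A1 (Pearson r = 0.991), CREB3L1 (0.981) and the Notch ligand gene JAG1 (0.981). For SKIL they were ACLY, which makes cytosolic acetyl-CoA (0.977), the calponin-family gene TAGLN2 (0.970) and the Wnt ligand gene WNT5B (0.968). For SMAD7 they were the glutathione transferase gene GSTP1 (0.961), BZW2 (0.951) and the myosin light chain gene MYL9 (0.945). The 9 points share runs and fall into untreated and treated groups, so these r values describe likeness of pattern only.

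As a check of the labelled cell type, 4 of 6 epithelial markers were past the filter (KRT8, KRT18, KRT19 and EPCAM), while the E-cadherin gene CDH1 was at 1.28 in untreated cells, near background. Of 8 proximal tubule markers with a probe set, PAX8 alone passed the filter. The others had means in untreated cells from 1.36 (LRP2) to 2.16 (SLC5A2), below the array medians, so these markers do not show the labelled cell type. Epithelial EPCAM fell by 1.27 at 24 h and by 1.17 at 48 h (limma, adjusted p = 0.00116 and 0.00172), and PAX8 fell by 0.60 and 0.81 (adjusted p = 0.0233 and 0.00496). The epithelial markers KRT8 and KRT7 went the opposite way, without passing when no block was used. KRT8 was at 0.65 and 0.46 (adjusted p = 0.064 and 0.222; 0.0123 and 0.0546 with the replicate block), and KRT7, below the filter, was at 0.73 and 0.32 (adjusted p = 0.0837 and 0.662 in the fit over all genes). For both, all treated arrays lay above all untreated ones. KRT18 was at 0.14 and −0.28 and KRT19 at −0.19 and −0.29, and neither was past the threshold. No endothelial or leukocyte marker passed the filter, and their highest group means were 1.81 and 1.56 in untreated cells. Of 6 fibroblast markers LUM passed the filter, and its change did not pass the threshold (−0.37 and 0.33). COL1A1, a fibrillar collagen gene below the filter, rose by 1.35 at 24 h in the fit over all genes (adjusted p = 0.037) and was at 1.11 at 48 h (adjusted p = 0.0848), with all treated arrays above all untreated ones. The other 5 fibroblast markers did not pass in that fit. The summed log2 values of the fibroblast markers ran from 15.8 to 17.7 at 24 h and from 16.0 to 17.2 at 48 h, against 14.8 to 16.4 in untreated cells. In the same order, proximal tubule sums were 18.5 to 18.8 and 18.1 to 18.5, against 18.9 to 19.1. Epithelial sums were 36.3 to 38.1 and 35.7 to 37, against 37.2 to 37.8. Endothelial sums were 4.4 to 4.9 and 4 to 4.5, against 4.2 to 4.4. Leukocyte sums were 4 to 4 and 3.6 to 3.9, against 3.6 to 4.2. The part of other cells in the results was not tested. Array medians lay between 2.2 and 2.23.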

How the data were processed

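RNA of 9 pooled HK-2 cultures was hybridised to a 1-colour Affymetrix array. The deposited log2 values, 1 per probe set, were made by the authors with GCRMA, which corrects background from probe sequence, normalizes between arrays and summarises probes, per the submitters' processing notes (no version named). That the scale is log2 was read from the values, whose maximum was 12.5. The values were used with no further normalization, and no detection calls were used. The number of arrays limits the precision.

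Of 22277 probe sets, 19070 had 1 gene symbol in the platform annotation, 1043 several and 2164 none. Only the first kind was named, and symbols were updated through gene IDs of a RefSeq table for GRCh38.p14 (19058 matched). Each gene was read from its probe set of highest mean. Tests used lmFit and eBayes of limma 3.58.1 (R 4.3.3; all 9 arrays, Benjamini-Hochberg adjustment over the 4368 genes tested). The script was tested on simulated data. The members, gene lists and naming rule were chosen with earlier results of these data known. From the lists, genes past the threshold (up to 6 a list, by smallest p) or else the gene with the smallest p were named, and for SMAD7, SKIL and PMEPA1 the 3 genes with the highest r.

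The replicate numbers come from the sample titles. Correlations of deviations from group means ran from 0.378 to 0.662 for arrays that share a number, against −0.526 to 0.185 for the rest, so the numbers were taken to mark the runs. The fit with the replicate block is printed where it changes a call. Replicates are runs of 1 line. Without the block, p-values measure the spread between runs within a group, which includes offsets shared by the arrays of a run. With the block these offsets are removed, and p-values measure how far the differences vary between runs. For the tested genes, the fits with an array or a run left out used no block.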

Additional observations from a re-analysis of the deposited data

How the results depend on the processing

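At 24 h, 3 tested members passed in the fit as reported and with the replicate block, 5 without the filter and 5 without the filter and with the replicate block, where the 4 dim members enter. At 48 h these counts were 3, 3, 4 and 5. Without the filter, 210 of all 11963 genes passed at 24 h and 212 at 48 h. With the replicate block as well, 572 and 470 of them did. In the counts without the filter SMAD3 was lower and the other members that passed were higher. Leaving out an array or a run gave 1 to 3 at 24 h and 1 to 3 at 48 h. PMEPA1 passed at both times in every alternative in which it was tested. It was not tested at a filter of 5, which left 2 calls among 4 members. SMAD7 and SMURF2 kept their direction in every alternative, and their calls were lost only where an array or a run was left out. Without run 1 their adjusted p-values were 0.173 and 0.0848 at 24 h. Over all tested genes, 501 passed at 24 h with the replicate block (210 without it) and 438 at 48 h (194 without it). Leaving out an array or a run gave 34 to 213 and 33 to 206.

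Signs of uncalled values moved around 0. SMAD2 at 24 h was at 0.08 as the mean over probe sets and at −0.40 to 0.19 when arrays or runs were left out. The same ranges were −0.16 to 0.58 (24 h), −0.07 to 0.67 (48 h) and −0.08 to 0.25 (48 h against 24 h) for SMAD4, −0.11 to 0.06 for TGIF1 at 48 h (0 with median centring) and −0.04 to 0.20 for SMAD7 at 48 h against 24 h. Without the filter they were −0.12 to 0.03 for SKI at 24 h (0.01 without run 1), −0.35 to 0.13 for SMAD6 at 48 h (0.13, 0.12, 0.04 and 0.01 where its sign turned) and −0.06 to 0.41 at 48 h against 24 h. SKI as the mean over probe sets was at −0.02 at 48 h and −0.02 for 48 h against 24 h. The cause was not tested. The fits of dim members other than those without the filter alone were chosen after seeing the data. Signal near background limits what can be said of SMAD3, SMAD6, SKIL and SKI.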
